A study of Rattus norvegicus with 20 samples.

Results

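The insulin-like growth factor (IGF) system was followed through 10 of the 30560 genes in the expression table. They comprised the ligands Igf1 and Igf2, the receptors Igf1r and Igf2r, and the binding proteins Igfbp1, Igfbp2, Igfbp3, Igfbp4, Igfbp5 and Igfbp7. Members were taken by gene symbol, and each symbol matched 1 row. IGF1 and IGF2 are secreted growth factors that signal through the receptor tyrosine kinase IGF1R, whereas IGF2R binds IGF2 and carries it to the lysosome. The secreted binding proteins hold the ligands, extend their life in the circulation and set how much ligand reaches the receptor. In the kidney the system is known for its part in glomerular filtration, tubular transport and growth, and in the heart for growth and survival of cardiac muscle.

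Cortex of 1 kidney and the left ventricle were each sequenced from 10 male rats that carried the genotype label WT. The study's title calls the animals hypertensive, and their strain was not given in the sources used here. Every animal received a telemeter at 8 weeks of age and then ate a diet with 4% NaCl for 3 weeks, so no group on a normal-salt diet was analysed here. Over the same 3 weeks a subcutaneous osmotic minipump delivered vehicle to 5 animals (RB030 to RB034) or Maresin 1 (MaR1), a lipid mediator derived from an omega-3 fatty acid, to the other 5 (RB035 to RB039) at no more than 1.3 µg/kg/day. The 4 groups were therefore vehicle kidney, MaR1 kidney, vehicle heart and MaR1 heart, with 5 libraries each. Libraries came from poly-A RNA. Values are FPKM, fragments per kilobase of gene model scaled for library size, which allow levels to be compared between genes.

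Assigned fragments ranged from 19383232 to 30342034 per library. Labels name separate animals, so replicates are animals. The summed markers of proximal tubule were at 4889 to 8677 FPKM in kidneys (19.5 to 42.1 in hearts), and those of cardiomyocytes at 7930.3 to 13294 FPKM in hearts (0.395 to 1.35 in kidneys). Libraries differed in tissue content. In 5 hearts (RB031, RB033, RB034, RB035 and RB038) the atrial light chain gene Myl7 stood at 151 to 784 FPKM, against 0.163 to 1.65 in the other 5. In 4 kidneys (RB034, RB036, RB038 and RB039) the urothelial gene Upk1a stood at 1.47 to 23.8 FPKM, against 0.123 to 0.434 in the other 6. Kidney RB039 also had 120 FPKM of the adipocyte hormone gene Adipoq, where the other 9 kidneys had 2.77 to 13.2. In bulk tissue of this kind, fewer cells of a type and less RNA per cell cannot be told apart.

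Among the 10 members, ligand transcripts were more abundant in the heart, and receptor and binding protein transcripts in the kidney. Igfbp6, a binding protein that is not a member, went the other way, at 22.9 to 60.5 FPKM in hearts and 0.365 to 10.5 in kidneys. In the vehicle animals Igf1 and Igf2 were higher in the heart, and the other 8 members were lower there. The fits behind these comparisons did not pair the kidney and heart of an animal. Both ligands and all 8 others passed the test in vehicle animals, and again in MaR1 animals. Such calls were the rule in this comparison, because 77% of the 12978 genes tested in vehicle animals and 78.2% of the 13006 tested in MaR1 animals were called (78.2% and 79.5% at an unadjusted p under 0.05). By direction, 37% of genes were called higher in the heart and 40% lower in vehicle animals (37.9% and 40.3% in MaR1 animals). The split depends on scaling. Per assigned fragments in place of the authors' library sizes, a choice made after seeing the data, 3303 genes were called higher in the heart and 6973 lower in vehicle animals (4803 and 5186 with the authors' sizes), and 3401 and 7082 in MaR1 animals (4925 and 5245). That scaling moved the median of all genes to -0.36 in both, and the 10 members kept their directions and calls. The median of the 10 members' differences was -1.16 on the log2 scale in vehicle animals and -0.997 in MaR1 animals, beside medians over all genes tested of -0.03 and -0.02. Libraries of the organs did not overlap for 10 of 10 members in vehicle animals and for 7 of 10 in MaR1 animals, where 65.9% and 66.8% of genes did not overlap. The exceptions in MaR1 animals were Igf2r, Igfbp3 and Igfbp4.

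**Figure D1:**
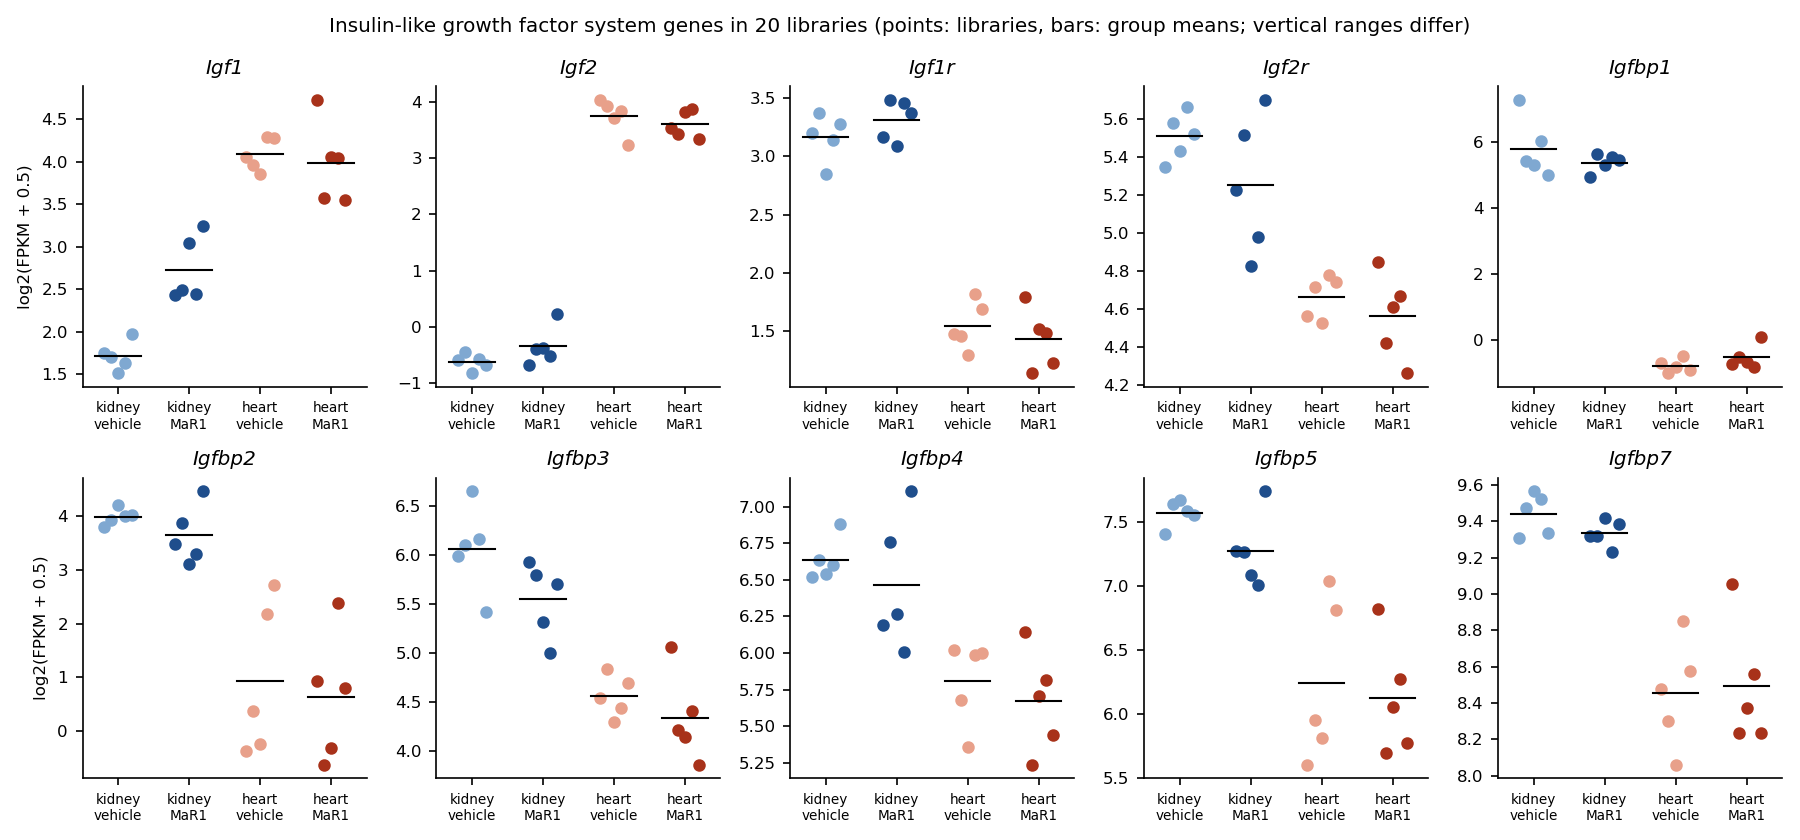
Expression of the 10 members as log2(FPKM + 0.5) on the vertical axis in vehicle kidney, MaR1 kidney, vehicle heart and MaR1 heart. Each point is 1 library (5 per group), each bar is a group mean, and the vertical range differs between panels. Igf1 and Igf2 are higher in hearts, the receptors and binding proteins are higher in kidneys, and the kidney groups separate for Igf1 alone.

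The plot of values by library shows this division. Igf1 (ENSRNOG00000004517, protein coding, 22282930 to 22359296 on the + strand of chromosome 7) encodes the main postnatal IGF. In vehicle animals it averaged 16.7 ± 2.28 FPKM (SD, n = 5) in the heart and 2.79 ± 0.394 in the kidney, a difference of 2.38 ± 0.11 (SE) on the log2(FPKM + 0.5) scale (limma, adjusted p = 1.39e-09). In MaR1 animals the heart averaged 16.2 ± 6.03 FPKM and the kidney 6.33 ± 1.90, a difference of 1.26 ± 0.24 (adjusted p = 0.000525). The genome build behind these positions was not given in the sources used here.

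Igf2 (ENSRNOG00000020369, 197814410 to 197823018 on the - strand of chromosome 1) encodes the fetal-type IGF. It was read from 868 to 1868 fragments per heart but from only 8 to 84 per kidney. Vehicle hearts held 15.9, 14.6, 12.5, 13.7 and 8.90 FPKM (RB030 to RB034), and vehicle kidneys 0.163, 0.239, 0.0663, 0.170 and 0.127. Every heart was far above every kidney, with a ratio of group means of 85.8 in vehicle and 38.4 in MaR1 animals. On the log2(FPKM + 0.5) scale, which understates the change of a gene this low in 1 organ, the differences were 4.36 ± 0.14 and 3.94 ± 0.17. The vehicle value ranged from 3.59 with a pseudocount of 1 to 6.44 in a fit to recovered fragments (limma voom). The gene model spans that of Mir483, which was listed at a mean of 0.329 FPKM in hearts.

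Igf1r (ENSRNOG00000014187, 121550743 to 121831777 on the + strand of chromosome 1), the signalling receptor, averaged 8.56 ± 1.18 FPKM in vehicle kidneys and 2.45 ± 0.429 in vehicle hearts. Its difference, heart minus kidney, was -1.62 ± 0.12 in vehicle and -1.88 ± 0.13 in MaR1 animals. Igf2r (ENSRNOG00000014997, 47979109 to 48067501 on the + strand of chromosome 1) was the more abundant receptor in each organ, at 45.1 ± 3.85 FPKM in vehicle kidneys and 24.9 ± 1.97 in vehicle hearts. Its differences were -0.84 ± 0.08 and -0.69 ± 0.17.

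**Figure D2:**
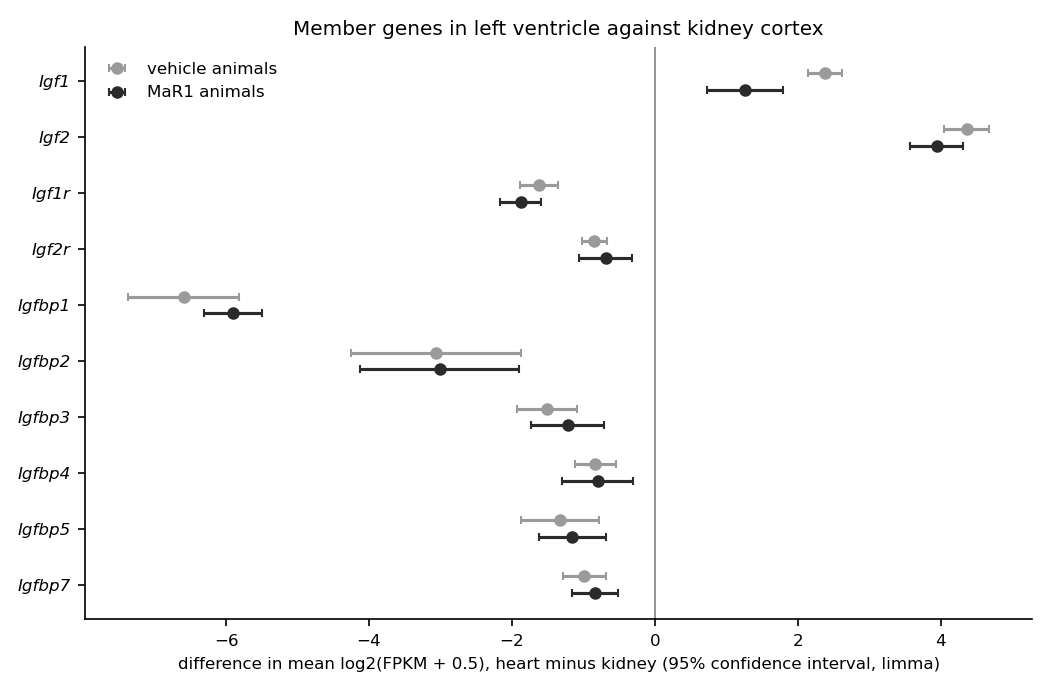
Difference in mean log2(FPKM + 0.5), left ventricle minus kidney cortex, on the horizontal axis for each member, in vehicle animals (grey) and MaR1 animals (black), with 95% confidence intervals from limma. Both ligands lie to the right of 0 and the other 8 members to the left, from -0.69 for Igf2r in MaR1 animals to -6.59 for Igfbp1 in vehicle animals.

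Among the 6 binding proteins followed here the organ difference was steepest for Igfbp1 and Igfbp2. Igfbp1 (ENSRNOG00000058780, 82047415 to 82052482 on the + strand of chromosome 14), an acutely regulated binding protein that insulin lowers in the liver, averaged 66.9 ± 51.6 FPKM in vehicle kidneys and 0.0877 ± 0.0880 in vehicle hearts. At 0 to 17 fragments per library, Igfbp1 was near the limit of detection in the hearts. Heart RB031 had 0 fragments, which allows up to 0.0870 FPKM at 3 fragments, counting error only. The ratio of kidney to heart means was 763 in vehicle and 194 in MaR1 animals. It rested on single hearts with few fragments, since it was 1252 without RB033 and 330.3 without RB039. The log2 differences were -6.59 ± 0.35 and -5.91 ± 0.18. For the vehicle animals that difference ran from -5.71 with a pseudocount of 1 to -9.59 in limma voom. Igfbp2 (ENSRNOG00000016957, 74415546 to 74442937 on the + strand of chromosome 9), an abundant binding protein of plasma, had differences of -3.06 ± 0.54 and -3.01 ± 0.50. Its heart values were spread, from 0.149 to 6.10 FPKM (4 to 184 fragments). The Igfbp2 ratio of kidney to heart means was 6.71 in vehicle and 8.18 in MaR1 animals. It also rested on single hearts, being 11.3 without RB034 and 17.6 without RB038.

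The remaining binding proteins were present in both organs. Igfbp3 (ENSRNOG00000061910, 82056347 to 82064083 on the - strand of chromosome 14), the main carrier in plasma, differed by -1.51 ± 0.19 in vehicle and -1.22 ± 0.23 in MaR1 animals. For Igfbp5 (ENSRNOG00000017206, 74448382 to 74465156 on the - strand of chromosome 9), which also binds extracellular matrix, the values were -1.33 ± 0.25 and -1.15 ± 0.21. Igfbp7 (ENSRNOG00000002050, 30737164 to 30797314 on the + strand of chromosome 14), a relative with low affinity for IGFs, gave -0.99 ± 0.14 and -0.84 ± 0.15. Igfbp4 (ENSRNOG00000010635, 83989591 to 84007225 on the + strand of chromosome 10), an inhibitory binding protein that is cleaved by pappalysin, gave -0.83 ± 0.13 and -0.80 ± 0.22. The largest adjusted p among these 12 differences of the binding proteins was 0.00682, for Igfbp4 in MaR1 animals. The end of Igfbp7 overlaps the end of Polr2b on the opposite strand, from 30797228 to 30797314. Without strand, reads from that short stretch cannot be assigned to 1 of the genes, and the strandedness of the libraries is unknown. Polr2b stood at means of 15.7 FPKM in kidneys and 14.7 in hearts.

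Igfbp1 and Igfbp3 are neighbours that point at each other on chromosome 14, with 3864 bases between their gene models. Igfbp2 and Igfbp5 lie the same way on chromosome 9, 5444 bases apart. The first pair is shown by its promoters because Igfbp1 was near 0 in the heart while Igfbp3 was read in both organs. The 250 bases before each gene start are from RefSeq on GRCr8, another build than the table's, at chr14:86261027-86261276 on the + strand for Igfbp1 and chr14:86277945-86278194 on the - strand for Igfbp3. Each is written 5′ to 3′. Capitals mark matches on either strand to CAAAACA, the core of the FOXO-type insulin response element, and to GTTAAT, an HNF1-type half-site that reads ATTAAC on the other strand. The motifs do not overlap each other in these windows.
Igfbp1: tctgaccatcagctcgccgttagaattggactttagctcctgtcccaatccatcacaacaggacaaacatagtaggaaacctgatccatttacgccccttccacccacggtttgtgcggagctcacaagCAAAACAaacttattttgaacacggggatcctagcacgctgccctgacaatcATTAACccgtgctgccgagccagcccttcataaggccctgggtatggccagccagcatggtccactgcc
Igfbp3: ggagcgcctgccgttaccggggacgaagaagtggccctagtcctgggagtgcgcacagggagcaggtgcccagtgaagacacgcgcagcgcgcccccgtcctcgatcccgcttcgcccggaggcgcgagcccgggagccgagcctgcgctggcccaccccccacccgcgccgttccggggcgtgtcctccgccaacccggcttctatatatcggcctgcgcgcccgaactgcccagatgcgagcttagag

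The Igfbp1 window held 1 match to CAAAACA, which began 121 bases before the gene start, and 1 to GTTAAT, which began 69 bases before it. The Igfbp3 window held neither. Over 33469 RefSeq promoters of this length, 5.46% held CAAAACA and 6.45% held GTTAAT. All 10 members had a promoter entry, 11 windows in all, and the only other match was 1 CAAAACA in the Igf1 window. A match describes letters and is no evidence of binding.

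Within each group the order of levels was led by Igfbp7, Igfbp5 and Igfbp4. In vehicle kidneys the means ran 697 FPKM for Igfbp7, 190.3 for Igfbp5, 99.5 for Igfbp4, 69.1 for Igfbp3, 66.9 for Igfbp1, 45.1 for Igf2r, 15.5 for Igfbp2, 8.56 for Igf1r, 2.79 for Igf1 and 0.153 for Igf2. The ranges of neighbours in that order overlapped between Igfbp4 and Igfbp3, between Igfbp3 and Igfbp1, and between Igfbp1 and Igf2r. MaR1 kidneys had the same order of means. There the ranges overlapped between Igfbp5 and Igfbp4, Igfbp3 and Igfbp1, Igfbp1 and Igf2r, Igfbp2 and Igf1r, and Igf1r (7.99 to 10.7 FPKM) and Igf1 (4.88 to 8.96), and no longer between Igfbp4 and Igfbp3. In vehicle hearts the means ran 356 FPKM for Igfbp7, 81.7 for Igfbp5, 56.4 for Igfbp4, 24.9 for Igf2r, 23.3 for Igfbp3, 16.7 for Igf1, 13.1 for Igf2, 2.45 for Igf1r, 2.31 for Igfbp2 and 0.0877 for Igfbp1. Ranges of neighbours overlapped there between Igfbp5 and Igfbp4, Igf2r and Igfbp3, Igfbp3 and Igf1, Igf1 and Igf2, and Igf1r and Igfbp2. MaR1 hearts had the same order of means and the same overlaps, and there Igfbp2 and Igfbp1 overlapped too.

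Binding protein transcripts outnumbered ligand transcripts in every library. The 6 binding proteins summed to 1040 to 1212 FPKM in vehicle kidneys and the 2 ligands to 2.42 to 3.54, so that 294 to 502 FPKM of binding protein stood against each FPKM of ligand (median 380.3). In MaR1 kidneys the ratio was 118 to 193 (median 171), with no overlap with the vehicle kidneys. The ligand sum in kidneys was nearly all Igf1 (8.96 of 9.63 FPKM in RB039). Igf1 alone also separated these groups, so the gap in the ratio is not a separate result. Vehicle hearts had ratios of 14.4 to 21.1 (median 15.3) and MaR1 hearts 15.6 to 20.2 (median 18.9), which overlapped. Igfbp7 alone made up 56.2% to 73.8% of the binding protein sum.

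In the kidney, no member passed the test between MaR1 and vehicle animals, and Igf1 had the smallest p and the largest difference of the 9 members tested. Igf1 stood at 2.85, 2.74, 2.35, 2.61 and 3.41 FPKM in the vehicle kidneys (RB030 to RB034) and at 4.88, 5.14, 7.75, 4.94 and 8.96 in the MaR1 kidneys (RB035 to RB039). Each MaR1 kidney exceeded every vehicle kidney, and RB037 and RB039 were the highest. Igf1 was the only member of the 9 tested whose groups did not overlap, as was the case for 1.23% of all 12446 genes tested. The difference was 1.02 ± 0.17 on the log2(FPKM + 0.5) scale (95% confidence interval 0.65 to 1.39), ranked 3 by p among all genes (unadjusted p = 8.39e-05), but limma's adjusted p was 0.298. Of all genes tested 0% were called. At an unadjusted p under 0.05 limma had 840 genes (6.75%), and the voom fit, made on recovered fragments, called 0 as well and had 842 at that p.

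Over 23 alternatives without a covariate, the kidney Igf1 difference stayed between 0.88 and 1.15, with adjusted p from 0.0694 to 0.921. Igf1 stood at 278 to 445 fragments in vehicle kidneys and 567 to 1101 in MaR1 kidneys. Its difference was 1.09 ± 0.18 without the 4 kidneys with Upk1a (limma, adjusted p = 0.235), where RB035 and RB037 were the only MaR1 kidneys left. Without RB039 alone it was 0.89 ± 0.14 (limma, adjusted p = 0.0849). Igf2 was below the filter of 1 FPKM in the kidneys and was not tested there. Its MaR1 kidneys held 0.127, 0.266, 0.270, 0.196 and 0.670 FPKM, and the groups overlapped.

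The receptors showed no call in the kidney. Igf1r ranged from 6.71 to 9.86 FPKM in vehicle and from 7.99 to 10.7 in MaR1 kidneys, a difference of 0.15 ± 0.11 (adjusted p = 0.833). Igf2r stood at 40.2, 47.2, 42.7, 50.1 and 45.4 FPKM in vehicle and at 36.9, 45.3, 27.9, 31.0 and 51.5 in MaR1 kidneys. Vehicle values sat close together, with a coefficient of variation of 8.53%, whereas MaR1 values spread around them at 25.5%. The difference for Igf2r was -0.26 ± 0.15 (adjusted p = 0.801).

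All 6 binding proteins had lower means in MaR1 kidneys, and none was called. Igfbp3 stood at 63.3, 68.5, 100.3, 71.1 and 42.3 FPKM in vehicle and at 60.6, 55.1, 39.5, 31.5 and 51.6 in MaR1 kidneys, and each MaR1 kidney was under the vehicle mean of 69.1. The groups overlapped because vehicle kidney RB034 was low. The difference for Igfbp3 was -0.52 ± 0.23 (unadjusted p = 0.0461, adjusted p = 0.734).

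Igfbp5 stood at 169, 199, 204, 191 and 188 FPKM in vehicle and at 154, 154, 135, 128 and 214 in MaR1 kidneys. In 4 of the 5 MaR1 kidneys it was under every vehicle kidney, and RB039 was above every one of them. The difference for Igfbp5 was -0.30 ± 0.13 (unadjusted p = 0.0426, adjusted p = 0.721). RB039 was also the highest kidney for Igfbp2, with 13.4 to 18.0 FPKM in vehicle kidneys, 8.09 to 14.1 in 4 MaR1 kidneys and 21.6 in RB039, and a difference of -0.35 ± 0.22.

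Igfbp1 stood at 156, 42.4, 39.2, 65.1 and 31.6 FPKM in vehicle and at 30.1, 49.3, 39.5, 47.0 and 43.3 in MaR1 kidneys. Vehicle kidney RB030 alone set the vehicle mean of 66.9, while the medians were 42.4 and 43.3. The difference for Igfbp1 was -0.43 ± 0.37. Igfbp4 differed by -0.17 ± 0.19 and Igfbp7, at 599.7 to 758 FPKM in all kidneys, by -0.11 ± 0.09. Over the 9 members tested in the kidney 2 differences were above 0 and 7 below, with a median of -0.26, beside a median of 0.00 over all genes tested.

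Whether kidney Igf1 followed the tissue content of the pieces was asked with 13 marker lists, each scored as the mean log2(FPKM + 0.5) of its genes. Over the 10 kidneys Igf1 correlated with the collecting duct principal cell score at r = 0.84 (permutation test, two-sided, p = 0.0025, adjusted over 13 lists p = 0.0328) and rho = 0.79 (adjusted p = 0.0282). The r was 0.81 without the 2 kidneys farthest from the median score (permutation test, adjusted p = 0.0715). Without 1 animal at a time the adjusted p for collecting duct ran from 0.0105 to 0.0836 in that test. With summed FPKM as the score, collecting duct did not pass (r = 0.78, permutation test, adjusted p = 0.0509). Inner medulla then had an r of 0.45 (adjusted p = 0.352), and adipocytes passed (r = 0.79, adjusted p = 0.0221). For the inner medulla and thin limb score r was 0.73 (adjusted p = 0.0788) and rho 0.85 (adjusted p = 0.0194), for urothelium r was 0.67 (adjusted p = 0.0992) and rho 0.88 (adjusted p = 0.0194), and for adipocytes r was 0.71 (adjusted p = 0.0788) and rho 0.81 (adjusted p = 0.0282). Without the 2 farthest kidneys r became 0.71 for inner medulla, 0.41 for urothelium and 0.85 for adipocytes. The other 9 lists, among them proximal tubule, podocyte, fibroblast and macrophage, had r from -0.57 to 0.53, all with adjusted p of 0.218 or more. Macrophage depended on the kidneys used. Its r was 0.46 over all kidneys and 0.85 without the 2 farthest, RB034 and RB030 (permutation test, adjusted p = 0.0623). Without RB030 alone it was 0.74 (adjusted p = 0.0950). The rest of these lists had r from -0.47 to 0.22 without their 2 farthest kidneys.

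These scores moved with treatment too. The inner medulla score ran from 0.96 to 1.36 in vehicle and from 1.60 to 2.89 in MaR1 kidneys, the collecting duct score from 3.29 to 3.43 and from 3.44 to 3.67, and the adipocyte score from 0.37 to 0.60 and from 0.78 to 5.18, without overlap in any of the 3. The urothelium score overlapped, at -0.79 to 0.20 and -0.62 to 3.29. Inner medulla markers summed to 49.9 to 126 FPKM in vehicle and 67.5 to 250.1 in MaR1 kidneys, with 8 of 8 tested markers higher in MaR1 kidneys and 7 of them at an unadjusted p under 0.05. All 7 adipocyte markers tested were higher as well (2 at that p, summed level 11.5 to 24.0 against 28.7 to 530), with Lep at 0 in every vehicle kidney. Of all 12446 genes tested, 6227 were higher in MaR1 kidneys, 408 of them at that p. The marker lists were chosen with earlier results of these data known. The inner medulla list is also not specific to the kidney, since its genes summed to 1861 to 2724 FPKM in vehicle hearts. Since Igf1 and these scores both separated the groups, treatment and content cannot be told apart from the correlations over all kidneys.

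**Figure D3:**
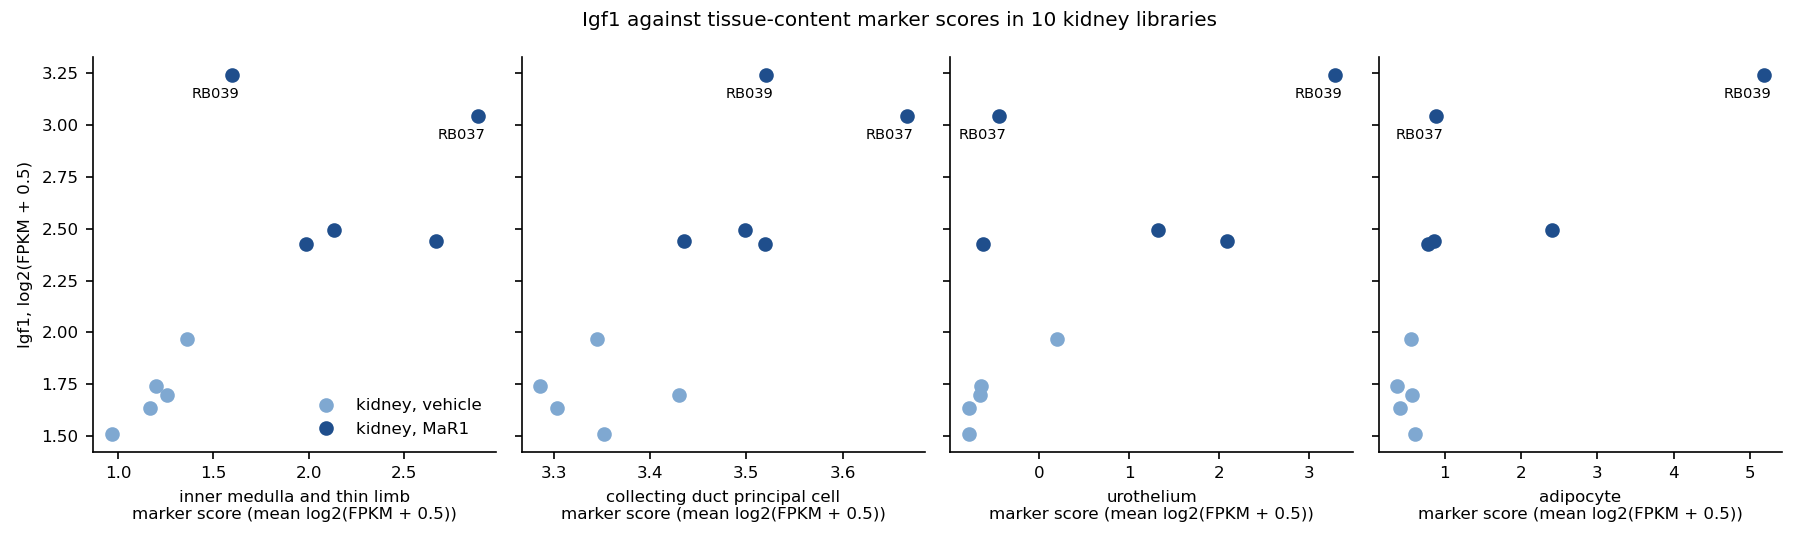
Igf1 as log2(FPKM + 0.5) on the vertical axis against the scores of 4 marker lists (mean log2(FPKM + 0.5)) in 10 kidney libraries, light for vehicle and dark for MaR1. MaR1 kidneys lie above and mostly to the right of vehicle kidneys. RB039 has the highest Igf1 with an inner medulla score of 1.60, the lowest of the MaR1 kidneys, and the highest adipocyte and urothelium scores.

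Within the groups, with each group's mean removed, Igf1 had an r of -0.06 with the inner medulla score, 0.44 with collecting duct, 0.37 with urothelium and 0.59 with adipocytes. No list passed (exact permutation within groups, lowest adjusted p = 0.758 for r and 0.862 for rho). In the scatter of Igf1 against the 4 scores, kidney RB039 had the highest Igf1 but the lowest inner medulla score of the MaR1 kidneys. Over the 9 kidneys without RB039, with the groups pooled and so with the treatment difference in the value, 4 lists passed by r. These were inner medulla (r = 0.96, rho = 0.97, permutation test, adjusted p = 0.000650 and 0.00195), collecting duct (0.89), podocytes (-0.86) and thick ascending limb with distal convoluted tubule (0.83). The leading list depended on the kidney left out. Without RB037 instead, urothelium (r = 0.88, permutation test, adjusted p = 0.0138), adipocytes (0.85, 0.00559) and collecting duct (0.81, 0.0404) passed. Inner medulla then had an r of 0.63 (permutation test, adjusted p = 0.216). Over the 6 kidneys without Upk1a, pooled in the same way and chosen after seeing the data, r was 0.996 for inner medulla, 0.91 for urothelium and -0.90 for podocytes (permutation test, adjusted p = 0.0180 for each). Of these kidneys only RB035 and RB037 came from MaR1 animals. Upk1a is itself on the urothelium list. The urothelium score of these kidneys ran only from -0.79 to -0.44, against 0.20 to 3.29 in the others, so its r says little about urothelial content. Within the groups and without RB039, also chosen after seeing the data, the r with inner medulla was 0.74 and rho 0.67 (exact permutation, p = 0.0132 and 0.0403, adjusted over 13 lists p = 0.172 and 0.524).

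Marker scores were then put into the kidney fit as covariates. With 1 score at a time, the Igf1 difference was 1.07 ± 0.32 with inner medulla, 0.68 ± 0.28 with collecting duct, 0.87 ± 0.21 with urothelium and 0.82 ± 0.17 with adipocytes. It was 0.93 ± 0.17 with fibroblasts, 0.99 ± 0.20 with macrophages, 1.06 ± 0.19 with proximal tubule and 1.09 ± 0.24 with podocytes. All 8 were above 0, and it passed the threshold with the adipocyte score (adjusted p = 0.0282) and the fibroblast score (adjusted p = 0.0225), over a range of adjusted p from 0.0225 to 1.00 for all alternatives. The difference was not kept in 2 fits added after seeing the data. It was 0.19 ± 0.27 (95% confidence interval -0.42 to 0.79, adjusted p = 1.00) with the inner medulla score and RB039 left out, and -0.02 ± 0.37 (-0.86 to 0.82, adjusted p = 1.00) with the inner medulla and adipocyte scores together. As the scores separate the groups, these fits have wide intervals and do not divide the Igf1 difference between treatment and tissue content.

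**Figure D4:**
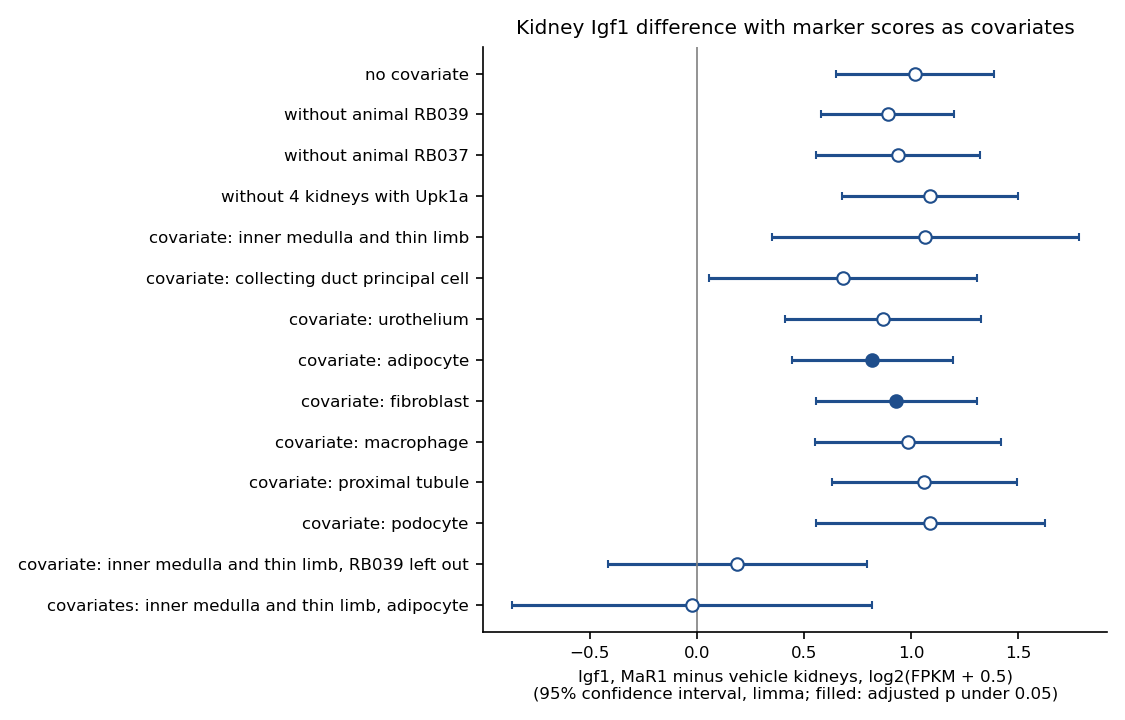
Difference of Igf1 between MaR1 and vehicle kidneys on the log2(FPKM + 0.5) scale (horizontal axis), with 95% confidence intervals from limma, without a covariate, with libraries left out and with marker scores as covariates. Filled points have an adjusted p under 0.05. The 8 fits with a single score and all kidneys lie at 0.68 to 1.09, and the 2 lowest rows lie at 0.19 and -0.02.

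For the other members no relation with a marker score passed adjustment in the kidney, and the largest r are given as a description. Within groups the r with the inner medulla score was -0.87 for Igfbp2, -0.85 for Igfbp5, -0.82 for Igf2r, -0.67 for Igfbp3 and -0.61 for Igfbp4. With the proximal tubule score it was 0.91 for Igf2r, 0.83 for Igfbp5, 0.82 for Igfbp2 and 0.76 for Igfbp4, and with the podocyte score 0.88 for Igfbp2 and 0.79 for Igfbp5. None of the 117 relations of members and lists in the kidney passed adjustment (exact permutation within groups, lowest adjusted p = 0.114 for r and 0.0813 for rho). Podocyte markers, which mark the cortex, summed to 98.8 to 141 FPKM in vehicle and 69.2 to 103 in MaR1 kidneys. Of these, 7 of 8 tested had lower means in MaR1 kidneys, beside 6219 of all 12446 genes tested.

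The direction of several kidney differences turned with the covariate. With the inner medulla score in the fit, the differences were 0.61 ± 0.22 for Igfbp2, 0.40 ± 0.29 for Igfbp4, 0.36 ± 0.18 for Igf2r, 0.25 ± 0.33 for Igfbp3 and 0.21 ± 0.16 for Igfbp5, all without a call. With the adipocyte score, which rests on RB039, 534 genes were called, and among them 5 members. Besides Igf1 these were Igfbp2 at -0.76 ± 0.11 (adjusted p = 0.0156), Igfbp5 at -0.51 ± 0.09 (adjusted p = 0.0197), Igfbp4 at -0.52 ± 0.11 (adjusted p = 0.0341) and Igf2r at -0.51 ± 0.12 (adjusted p = 0.0427). The adjusted p of these 4 ranged up to 1.00 over their alternatives.

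In the heart, no member differed between MaR1 and vehicle animals beyond the spread of the libraries. Igf1 stood at 16.2, 15.1, 13.9, 19.1 and 18.9 FPKM in vehicle and at 26.1, 11.4, 16.2, 16.0 and 11.2 in MaR1 hearts, a difference of -0.10 ± 0.20. The MaR1 hearts lay on both sides of the vehicle hearts, with RB035 highest and RB036 and RB039 lowest. Igf2 stood at 11.1, 10.2, 13.6, 14.2 and 9.64 FPKM in MaR1 hearts and overlapped the vehicle hearts given above, with a difference of -0.15 ± 0.16.

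Of the 9 members tested in the heart 1 had a difference above 0 and 8 below. The median was -0.12, beside 0.01 over all genes tested. Every adjusted p was 1.00 in limma, the groups of libraries overlapped for all 10 members, and 0% of 12237 genes were called (563 at an unadjusted p under 0.05, 4.6%). Groups of libraries did not overlap for 0.842% of genes. Limma voom called 0, with 550 at that p. The difference was -0.12 ± 0.14 for Igf1r, -0.10 ± 0.11 for Igf2r, -0.23 ± 0.20 for Igfbp3 and 0.04 ± 0.18 for Igfbp7.

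The responses of the organs were compared directly by an interaction term over the 20 libraries. This fit did not pair the kidney and heart of an animal, so the 20 libraries of 10 animals were treated as independent. For Igf1 the heart response minus the kidney response was -1.12 ± 0.28 (95% confidence interval -1.70 to -0.54), which ranked 19 by p of 12984 genes (unadjusted p = 0.000718) and had an adjusted p of 0.441. Leaving out 1 animal at a time gave values from -1.38 to -0.88 and adjusted p from 0.0531 to 1.00. Over all 23 alternatives, among them 1 that paired the libraries of an animal, the values stayed in that range and none passed the threshold. For the other members the adjusted p was at least 0.939, the value for Igf2, and 0% of genes were called in this comparison (714, or 5.5%, at an unadjusted p under 0.05, and 586 in limma voom, which also called 0). A difference between organs in the Igf1 response was therefore not established by the test.

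In the heart 6 of the 9 members above the filter had a relation with the fibroblast score that passed adjustment by r. Their lowest r was 0.87, and 7.85% of 12164 genes at a mean of 1 FPKM or more in the hearts, members included and the fibroblast markers left out, had an r at least as high. The median r was 0.88 over the 9 members and -0.03 over those genes. Hearts RB035, RB033 and RB034 had the highest fibroblast scores (7.92, 7.53 and 7.23) and RB036, RB032 and RB039 the lowest (6.32, 6.36 and 6.40). With group means removed the score had an r of 0.94 and rho of 0.92 with Igf1, 0.95 and 0.95 with Igf1r, and 0.99 and 0.99 with Igfbp7 (exact permutation within groups, adjusted p over 72 relations 0.01 for each r, and 0.0213, 0.0150 and 0.0150 for rho). For Igfbp4 r was 0.90 (exact permutation, adjusted p = 0.0130), for Igfbp5 0.88 (0.0136) and for Igf2r 0.87 (0.0277). For Igf2 r was 0.03 (exact permutation, adjusted p = 0.925), and the difference between the ligands was not tested.

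Without the 2 hearts farthest from the median fibroblast score, RB035 and RB033, r stayed at 0.88 for Igf1, 0.90 for Igf1r, 0.96 for Igfbp7, 0.91 for Igfbp4, 0.77 for Igfbp5 and 0.76 for Igf2r. The cardiomyocyte score ran the other way, with r of -0.83 for Igf1 and -0.94 for Igfbp7 (exact permutation, adjusted p = 0.0133 and 0.0125). These scores and the members come from the same libraries, and the part of the tissue makeup of each piece in these relations was not tested.

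**Figure D5:**
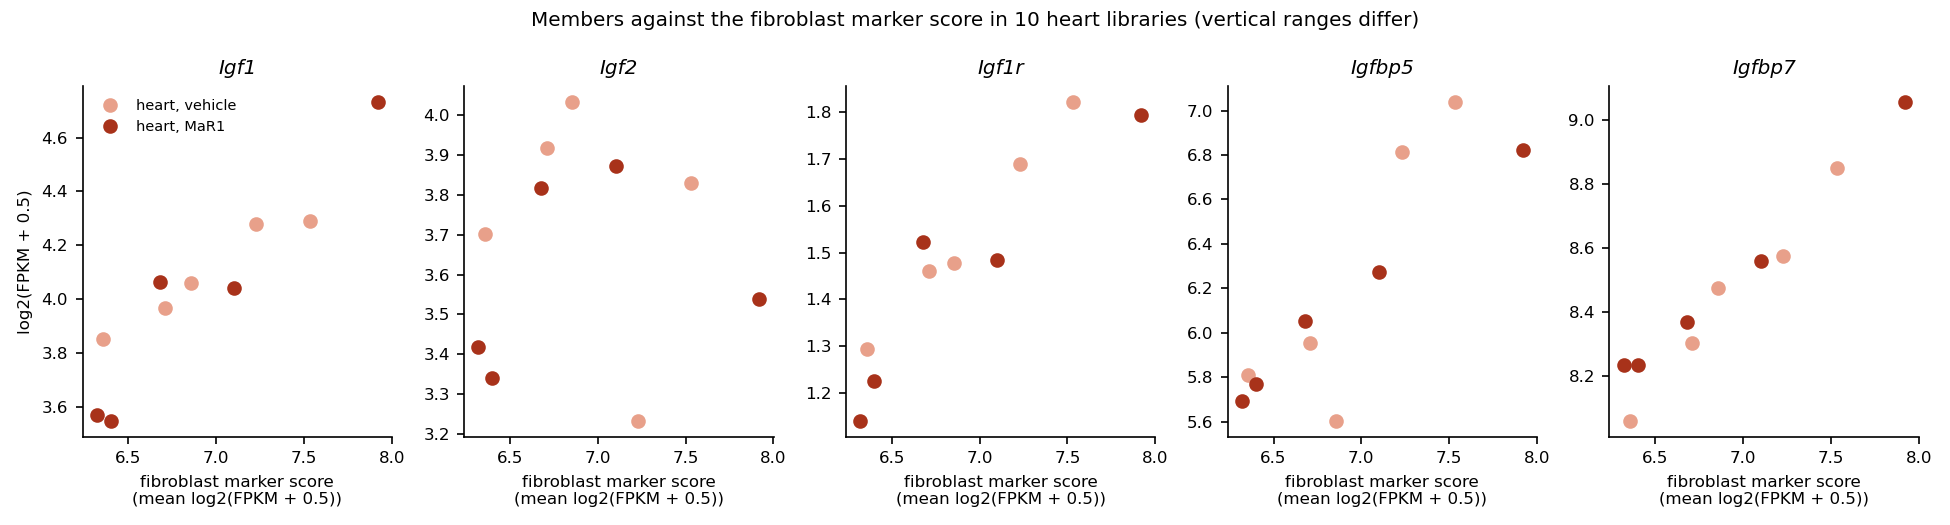
Igf1, Igf2, Igf1r, Igfbp5 and Igfbp7 as log2(FPKM + 0.5) on the vertical axes against the fibroblast marker score (mean log2(FPKM + 0.5)) in 10 heart libraries, light for vehicle and dark for MaR1. Vertical ranges differ between panels. All but Igf2 climb with the score in both groups, and the heart with the highest score (7.92) is RB035.

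The atrial marker Myl7 divided the hearts, and members are described by it without a test. Igfbp2 stood at 4.03, 6.10, 1.41, 4.71 and 0.795 FPKM in hearts RB033, RB034, RB035, RB038 and RB031, which had Myl7, and at 0.149 to 1.23 in the 5 without it. Igfbp5 stood at 61.5 to 131 FPKM with Myl7 and at 48.2 to 65.9 without. The values overlapped for both genes. Igf1r stood at 2.25 to 3.04 FPKM with Myl7 and at 1.70 to 2.37 without, and Igf2r at 24.9 to 28.2 and at 18.7 to 23.9. This split was chosen after seeing the data. The share of all genes whose values do not overlap in it was not computed, so the gap for Igf2r cannot be called unusual. Since Myl7 divides the hearts into groups of 5, no r with the atrial score or within these groups is given. The fibroblast score was 6.71 to 7.92 in the hearts with Myl7 and 6.32 to 6.86 in the others.

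Other genes of the pathway were taken as 5 lists, of which 72 of 73 symbols matched a row. In the kidney 0 genes of any list were called between MaR1 and vehicle animals. Of the IGF proteases, ternary complex genes and relatives, 2 of 10 tested had differences above 0 and 8 below (median -0.14). Those of smallest p were Igfbp6, a binding protein that prefers IGF2, at 1.20 ± 0.44, Adamts1, a matrix protease, at -0.60 ± 0.24, and Igfals, the acid-labile subunit that joins Igfbp3 and Igfbp5 in the circulating complex, at -0.41 ± 0.17. Igfbp6 held 0.365 to 1.15 FPKM in vehicle kidneys, 1.24 to 2.40 in 4 MaR1 kidneys and 10.5 in RB039.

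Of the insulin and IGF receptor signalling genes, 13 of 33 tested lay above 0 and 20 below in the kidney (median -0.02). The 3 of smallest p were the regulatory subunits of PI3 kinase Pik3r1 (-0.40 ± 0.14) and Pik3r2 (-0.13 ± 0.07) and the receptor adaptor Grb10 (-0.26 ± 0.15). The growth hormone axis, which drives Igf1 in the liver, had 3 of 8 above 0 (median -0.16), led by Jak2 (-0.20 ± 0.08), Socs3 (-0.64 ± 0.41) and Socs2 (-0.28 ± 0.18). FOXO-responsive genes had 5 of 14 above 0 (median -0.04), led by Sesn3 (-0.33 ± 0.14), Cdkn1b (0.15 ± 0.07) and Irs2 (-0.35 ± 0.21). The smallest adjusted p among all these genes was 0.680, for Pik3r1.

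In the heart 0 genes of the lists were called either, and every adjusted p was 1.00. The genes of smallest p were Ide (-0.22 ± 0.09), Ctsd (-0.10 ± 0.09) and Stc2 (-0.11 ± 0.19) among proteases and relatives, where 5 of 9 lay above 0. Among signalling genes, with 20 of 32 above 0, they included Rictor (0.14 ± 0.06) and Grb10 (0.18 ± 0.10). In the growth hormone axis, with 3 of 8 above 0, they were Stat5b (0.18 ± 0.07), Cish (-0.39 ± 0.20) and Socs2 (-0.15 ± 0.10). Among FOXO-responsive genes, with 10 of 14 above 0, they were Bcl6 (0.51 ± 0.25), Ccng2 (0.16 ± 0.09) and Pck1 (0.54 ± 0.45). H19, the noncoding neighbour of Igf2, was the only gene tested of the list of IGF2 RNA-binding proteins and H19, at -1.10 ± 0.56.

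Between the organs of vehicle animals, genes of the lists were called in both directions. Igfals, at 11.4 to 14.1 FPKM in vehicle kidneys and 0 to 0.0562 in vehicle hearts, was lower in the heart (-4.68 ± 0.08), while Igfbp6 (4.79 ± 0.24) and H19 (4.99 ± 0.42) were higher there. In the signalling list 13 of 33 genes were called higher in the heart and 5 lower, beside 37% and 40% of all genes. The share of higher calls was thus near that of all genes and the share of lower calls below it, a difference that was not tested. The adaptor Grb14 (4.36 ± 0.10) and the translation repressor Eif4ebp1 (2.54 ± 0.12) were among the first and the insulin receptor-related gene Insrr (-2.73 ± 0.14) among the second. Socs2, a feedback inhibitor of growth hormone signalling, was higher in the heart by 3.87 ± 0.15, and 1 other gene of the 8 on that axis was called, Stat5b. Of all genes tested 77% were called in this comparison, a larger share than on that axis.

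Among 11320 genes compared in the kidney, those most like Igf1 within groups were Hid1 (r = 0.90), Plekha6 (0.90), Rpa2 (0.89), Rasef (0.87) and Pomgnt1 (0.87), over 10 libraries, and 1 gene exceeded 0.9. In the heart they included Mbtps1 (0.97), Acsl4 (0.97), Siae (0.97) and Pls3 (0.97), and 239 of 11157 genes exceeded 0.9. These are the highest of many values and are given as a description.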

How the data were processed

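The authors deposited 1 table of FPKM per gene for 20 poly-A libraries. Per the submitters' processing notes, fastp, HISAT2 2.0.5, featureCounts 1.5.0-p3 and StringTie 1.3.3b were used, and the labels' protocols describe both a directional and a non-directional library, so strandedness is unknown. Their genome build was not given in the sources used here. FPKM times gene length gave whole fragments for 100% of 371175 values above 0 (tolerance 0.01), and the library sizes the authors used equalled median-of-ratios sizes over 14900 genes. No column was left unassigned, and no libraries of a group agreed within sampling noise (smallest chi-square per degree of freedom 10.2). Depth was 19383232 to 30342034 assigned fragments, so that 1 FPKM over 1 kb was worth 19.7 to 34.9 fragments.

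Genes whose mean over the fitted libraries reached 1 FPKM were tested on log2(FPKM + 0.5) with limma 3.58.1 (R 4.3.3, moderated, variance trend, two-sided), with Benjamini-Hochberg adjustment over all genes and a threshold of 0.05. Each organ was fitted alone, the organ comparisons within treatment, and the difference of responses over 20 libraries. The main fits had no term for the animal, and the replicate block was an alternative. The fits and correlations were tested on simulated data. Correlations used 100000 permutations, or all 14400 within groups (scipy 1.17.1), and p-values for members other than kidney Igf1 were added to a plan that held r only. Of 213 list symbols 208 matched. The members and lists were chosen with earlier results of these data known. Named genes were all members, the 3 genes of smallest p of each pathway list between treatments, and the 5 most like Igf1 in each organ, of which some are not reported here. Igfals, Igfbp6, Grb14, Eif4ebp1, Insrr and Socs2 between organs, and Upk1a, Myl7 and Adipoq, were named after their values were seen.

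Kidney and heart of 1 number come from 1 animal per the labels, so numbers pair the libraries across organs. Deviations from group means of the paired libraries had r from -0.02 to 0.14 over 12984 genes.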

Additional observations from a re-analysis of the deposited data

Results flagged for a closer look

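In 40 groups of 5 libraries (10 members in 4 groups), a library far from the others was looked for with Dixon's ratio against a critical value of 0.71, where chance gives about 1 group in 20. It was found in 4 groups. Igfbp1 in vehicle kidney RB030 stood at 156 FPKM, where the next highest vehicle kidney had 65.1. Igf2 in MaR1 kidney RB039 stood at 0.670 FPKM, where the next had 0.270, and this kidney also had the highest Upk1a and Adipoq. Igfbp1 in MaR1 heart RB039 stood at 0.573 FPKM, from 17 fragments, where the next had 0.196. Igfbp2 in MaR1 heart RB038 stood at 4.71 FPKM, where the next had 1.41, and this heart was 1 of the 5 with Myl7.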

How the results depend on the processing

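All 10 members kept their direction and their call between the organs, in vehicle and in MaR1 animals, under each of the 18 alternatives. With the replicate block, which pairs the kidney and heart of an animal, 9941 genes were called between organs in vehicle animals and 10027 in MaR1 animals (9989 and 10170 without it), and 0 in the difference of responses. Between treatments in the kidney, 0 genes were called, but 7 with all 20 libraries in 1 model, 6 with the replicate block added to that model, 534 with the adipocyte score, 353 with the fibroblast score, 1 with the macrophage score and 0 to 1 without 1 animal. No member was among the calls of the models of 20 libraries, and 5 members were called with the adipocyte score and 1 with the fibroblast score. For the difference of responses, 0 genes became 1 with a pseudocount of 0.1, 1 without a variance trend, 21 with library weights and 0 to 3 without 1 animal. A filter at a mean of 5 FPKM left kidney Igf1 untested. The cause of these changes was not tested.

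The following kidney differences changed sign, all uncalled. With the inner medulla score they were 0.36 for Igf2r, 0.61 for Igfbp2, 0.25 for Igfbp3, 0.40 for Igfbp4 and 0.21 for Igfbp5. With the podocyte score they were 0.055 for Igf2r, 0.25 for Igfbp2 and 0.20 for Igfbp4, with proximal tubule 0.056 for Igfbp4, with collecting duct 0.30 for Igfbp1 and with urothelium -0.00056 for Igf1r. Further alternatives were chosen after seeing the data. With the inner medulla score and RB039 left out they were 0.23 for Igf2r, 0.19 for Igfbp2 and 0.84 for Igfbp3. With the inner medulla and adipocyte scores together they were -0.023 for Igf1, -0.17 for Igf1r and 0.96 for Igfbp3. Without the kidneys with Upk1a it was -0.014 for Igf1r.

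In the heart, signs changed with the proximal tubule score for Igf1 (0.14), Igf1r (0.00039), Igf2r (0.061), Igfbp3 (0.022) and Igfbp5 (0.17), with the atrial score for Igf1 (0.021), Igfbp2 (0.16) and Igfbp5 (0.093), without the hearts with Myl7 for Igfbp5 (0.13), and for Igfbp7 with library weights (-0.046) and the macrophage score (-0.062). Without 1 animal, heart values ran from -0.28 to 0.012 for Igf1, -0.73 to 0.15 for Igfbp2, -0.30 to 0.077 for Igfbp5 and -0.10 to 0.14 for Igfbp7. The difference of responses for Igfbp2 was -0.031 with a pseudocount of 0.1, -0.16 with limma voom, -0.32 with library weights and -0.47 to 0.49 without 1 animal, and for Igfbp4 it was -0.16 to 0.25 without 1 animal.

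Of the 13 marker lists 1 passed with kidney Igf1 by r. With group means removed 0 passed, without the 2 animals farthest from the median score 0, with group means removed and RB039 left out 0, without the kidneys with Upk1a 3, and without 1 animal 0 to 4, the 4 being without RB039. With group means removed r was -0.059 for inner medulla, 0.33 for intercalated cells, -0.13 for thick ascending limb, 0.16 for proximal tubule and 0.14 for podocytes. With RB039 also left out it was -0.20 for urothelium, -0.17 for adipocytes, -0.19 for fibroblasts and -0.12 for smooth muscle. It was 0.00032 for intercalated cells with summed FPKM as the score, 0.16 for proximal tubule without the 2 farthest animals and 0.069 for endothelium without the kidneys with Upk1a. Without 1 animal it ran from -0.45 to 0.13 for intercalated cells, -0.33 to 0.12 for endothelium and -0.26 to 0.074 for lymphocytes. Depth limits Igf2 in kidneys (8 to 84 fragments) and Igfbp1 in hearts (0 to 17).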
